A study of Mus musculus with 12 samples.

Results

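Genes of mast cells, basophils and eosinophils were followed in the spleens of mice with and without Il1rn, the gene of the interleukin-1 receptor antagonist, which competes with interleukin-1 for its receptor. The genes were the mast cell protease Mcpt4, the mast cell carboxypeptidase Cpa3, the histidine decarboxylase Hdc, the basophil proteases Mcpt8 and Prss34, the IgE receptor chains Fcer1a and Ms4a2, the transcription factor Gata2, and the eosinophil granule genes Prg2 and Epx. Every probe set (a group of short array probes against 1 transcript) annotated with 1 of these symbols and no other was taken. That gave 12 of the 45037 probe sets on the array, for 9 of the 10 genes, since no probe set carried the symbol Prss34 alone, and Prss34 was not analysed here. All mice were BALB/c. Spleen RNA of 12 mice was measured on 1 Affymetrix array each, from 3 wild-type (wt) mice and 3 Il1rn-deficient (ko) mice at 1 month of age and 3 of each at 4 months. The labels give neither sex, litter nor the way the gene was inactivated.

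Mast cells, basophils and eosinophils make up a small share of the cells of the spleen. Mast cells and basophils carry the high-affinity IgE receptor, whose crosslinking releases stored granules of histamine, proteases and proteoglycan, and Gata2 is a transcription factor that both lineages need. Mast cells of connective tissue store chymases such as Mcpt4 with Cpa3, basophils store Mcpt8, and eosinophils fill their granules with major basic protein (Prg2) and eosinophil peroxidase (Epx). Histamine is made from histidine by Hdc, an enzyme that mast cells and basophils hold and that immature neutrophils and other myeloid cells also make.

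The promoters of the 3 genes that changed between genotypes in the results that follow, Mcpt4, Cpa3 and Hdc, are printed here so that they can be compared with one another. They are the 250 bases before the RefSeq transcript start in the mouse assembly GRCm38.p6, read along the gene, for Mcpt4 at chr14:56062311-56062560, for Cpa3 at chr3:20242182-20242431 and for Hdc at chr2:126618679-126618928, all on the minus strand. Capitals mark the GATA words.
Mcpt4 promoter: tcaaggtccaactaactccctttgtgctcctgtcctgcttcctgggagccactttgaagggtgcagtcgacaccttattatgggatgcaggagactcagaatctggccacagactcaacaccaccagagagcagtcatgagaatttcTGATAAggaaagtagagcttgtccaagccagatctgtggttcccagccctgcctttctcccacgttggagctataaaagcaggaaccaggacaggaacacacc
Cpa3 promoter: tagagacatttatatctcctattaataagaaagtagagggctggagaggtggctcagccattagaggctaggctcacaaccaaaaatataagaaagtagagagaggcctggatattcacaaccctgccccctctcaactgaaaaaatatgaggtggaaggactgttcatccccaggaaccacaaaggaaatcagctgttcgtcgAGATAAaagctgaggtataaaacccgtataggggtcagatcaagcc
Hdc promoter: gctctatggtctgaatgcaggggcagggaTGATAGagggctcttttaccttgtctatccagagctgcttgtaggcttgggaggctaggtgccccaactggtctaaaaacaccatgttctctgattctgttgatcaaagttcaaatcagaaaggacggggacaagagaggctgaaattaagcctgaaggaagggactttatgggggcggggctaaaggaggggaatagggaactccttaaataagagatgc
Both strands were searched for 4 GATA words, namely AGATAA, the variant with another first letter TGATAA, the variant with another last letter AGATAG, and the variant with both of those letters changed TGATAG. They were also searched for the E-box CANNTG. No GATA word overlapped an E-box in these 3 promoters. The Mcpt4 promoter holds TGATAA with its first base 103 bases before the start, and it holds no E-box. The Cpa3 promoter holds AGATAA 46 bases before the start and also the E-box CAACTG 116 bases and the E-box CAGCTG 59 bases before it. The Hdc promoter holds TGATAG 221 bases before the start and CAACTG at 157 bases. A GATA word lay in 26.5% of the 32851 promoter windows of the table and an E-box in 66.2%, and among the 10 windows of 9 of the genes (2 of them Gata2's, none for Prg2) 6 held a GATA word and 6 an E-box. These are matches of letters, and no binding was measured.

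The arrays were scaled alike, with median signals from 113 to 147 and 52.1% to 59.2% of probe sets at a signal of 100 or more. They fell into a set with a highest signal of 33427 to 37921 and a set with 51247 to 68987. The low set held every young ko array and 1 young wt array (replicate 3). For the members called at 1 month, values within the low set are therefore given beside the main ones. The labels do not say what separates the sets. At 1 month, 120 of the 27041 probe sets tested were called, and 1593 without wt replicate 3 of that age. Pancreas genes summed to a signal of 147088 in wt replicate 2 at 4 months, far above every other array. Spleen identity was borne out by the B cell gene Ms4a1, whose stronger probe set read 5834 to 13557. Of the 3 Il1rn probe sets, 1451798_at was at 121 to 163.5 in the wt mice at 1 month and 5.64 to 40.6 in the ko mice. It was lower in ko at 1 month (-1.70, SE 0.35, limma adjusted p = 0.0403), a call lost in 18 of 24 alternative analyses, with adjusted p from 0.0225 to 0.633, and -2.17 (limma adjusted p = 0.0034) at 4 months. The other Il1rn probe sets were not called at 1 month (limma adjusted p = 0.411 and 0.382).

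Mcpt4 was low in the young ko spleens and in no other group. Its signal was 320.0, 311 and 424 in the 3 wt mice at 1 month. In the ko mice of that age it was 26.8, 17.9 and 16.4. All 3 ko values lay under all 3 wt values, with no overlap. At 4 months Mcpt4 read 169.5, 360.2 and 279 in wt and 244.5, 429.6 and 341 in ko mice, so the groups overlapped, with ko replicate 2 above every wt mouse and the other 2 ko mice within the wt range of that age. Mcpt4 is a chymase of connective tissue mast cells, stored with heparin in their granules. Group means were 352 ± 62.6 (SD, n = 3) in wt and 20.4 ± 5.60 (SD, n = 3) in ko mice at 1 month, against 269 ± 95.7 and 338 ± 92.6 (SD, n = 3 each) at 4 months. On the log2 scale of signal plus 32, Mcpt4 was lower in ko at 1 month by 7.29-fold (log2 difference -2.87, SE 0.26, limma adjusted p = 5.17e-05). Since the ko signals are about as low as the offset, the size depends on it, and an offset of 1 gave -4.06. Within the low array set (1 wt against 3 ko arrays at this age) the difference was -3.13 (limma adjusted p = 0.0103), and the call held in all 25 alternatives that were run.

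Cpa3 moved the same way with a smaller step. The Cpa3 signal was 371, 275 and 347 in wt mice at 1 month. It was 132, 138 and 146 in the ko mice. The ko values lay close together and under every wt value, and under every value at 4 months as well. At 4 months Cpa3 read 372, 415 and 316 in wt and 283, 395 and 348 in ko mice, which overlap. Cpa3 is a metalloprotease that trims peptides and venoms and is stored with the chymases. It was lower in ko at 1 month by 2.11-fold (log2 difference -1.08, SE 0.19, limma adjusted p = 0.0152), from 331 ± 50.2 (SD, n = 3) to 139 ± 7.02 (SD, n = 3). The call was lost in 8 of 25 alternatives. Within the low array set, which has 1 wt array of that age, the call was lost with a difference as large (-1.15). The limma adjusted p was 0.0652 with the array set as a block, 0.0583 with median centring and 0.082 with only the arrays compared. It rose to between 0.0528 and 0.0719 without any 1 ko array of that age or without wt replicate 1. At 4 months the difference was -0.10 (limma adjusted p = 0.831).

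**Figure D1:**
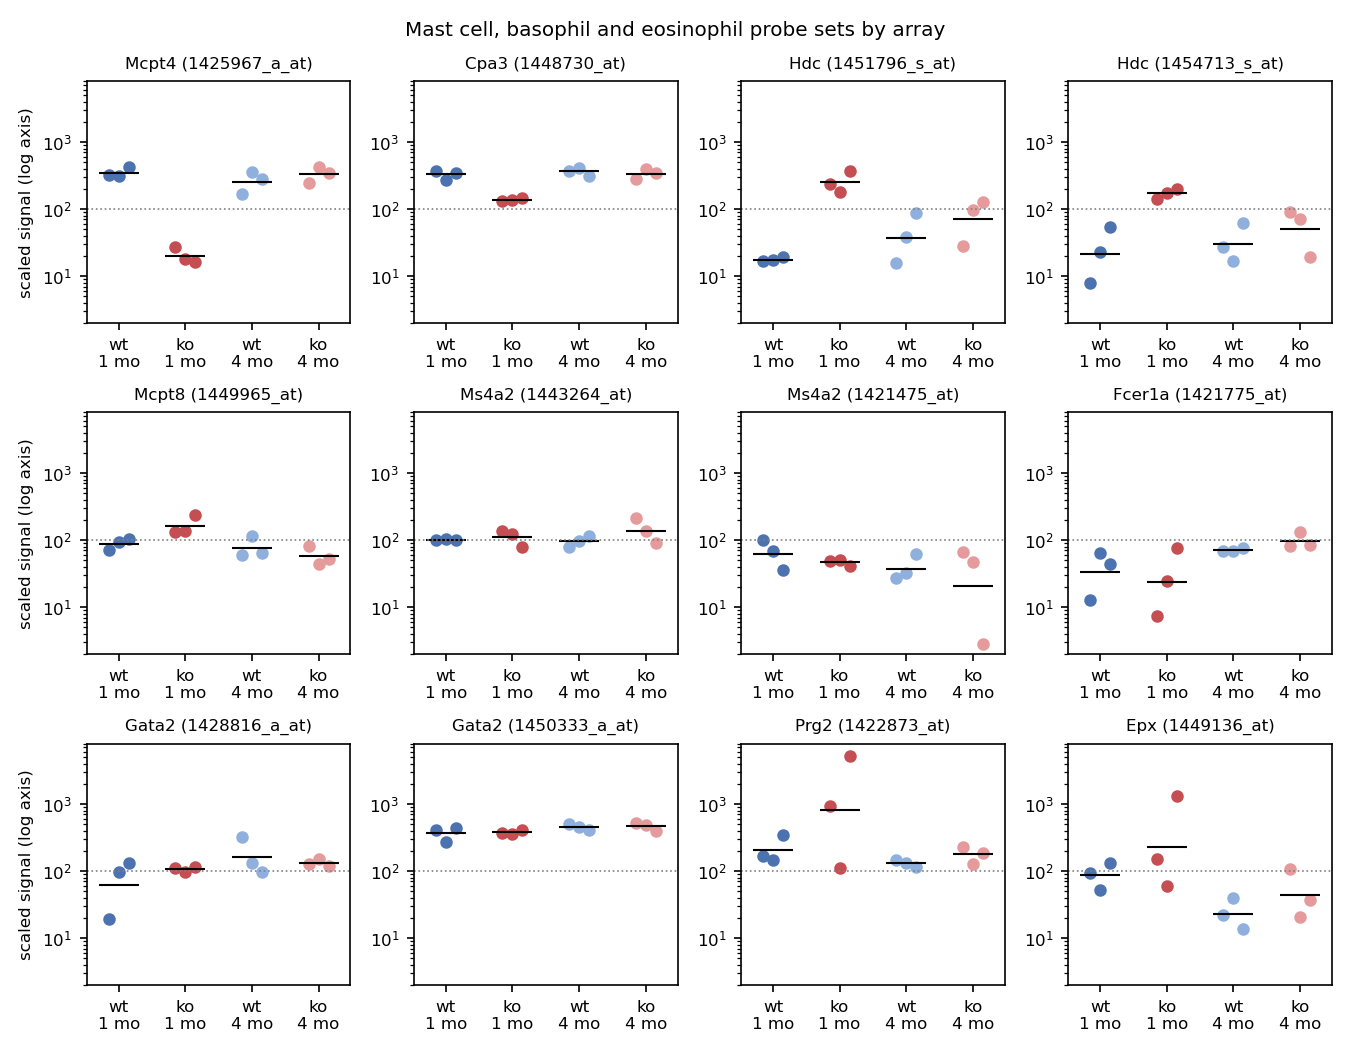
Signal of each of the 12 probe sets in every mouse (vertical axis, log scale, array signal scaled to a trimmed mean of 500) by genotype and age (horizontal axis); points are mice, black bars are geometric means of 3 mice and the dotted line marks a signal of 100. Mcpt4 at 16.4 to 26.8 and Cpa3 at 132 to 146 in the young ko mice lie under every other group, and Hdc (1451796_s_at) at 178 to 372.5 lies above the other groups.

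The plot of signals per mouse shows all the probe sets at once. Both mast cell granule genes (Mcpt4 and Cpa3) sit lowest in the young ko mice and the Hdc probe sets sit highest there. In bulk RNA, fewer cells of a type and less RNA per cell cannot be told apart. Of the 10 member probe sets tested, 3 were called between genotypes at 1 month (Mcpt4 and Cpa3 lower, Hdc higher), against 0.444% of all probe sets tested (0.203% higher and 0.24% lower). Their groups did not overlap for 5 (3 higher, 2 lower), against 19.9% of all (7.99% higher, 11.9% lower). Without the young ko arrays, neither Hdc probe set would have passed the filter on low signals, nor would Mcpt8 or Epx. Their calls and counts are therefore descriptions. The members were also chosen with earlier results of these data known. The counts and shares therefore describe the members and do not test them as a group.

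Other mast cell genes pointed lower at 1 month and were not called. None of the 13 tested was called by limma (3 at an unadjusted p under 0.05), and 11 of 13 had a negative difference, with a median of -0.46 against -0.04 for all probe sets tested. The chymase Cma1 read 250.5, 350.5 and 333 in wt and 171, 126 and 135 in ko mice at 1 month. These do not overlap, and the difference was -0.96 (SE 0.21, limma adjusted p = 0.0559); over both ages together Cma1 was lower in ko (-0.62, SE 0.15, limma adjusted p = 0.0278). Kit, the stem cell factor receptor of mast cells and progenitors, differed by 0.41 in its stronger probe set (limma adjusted p = 0.38). At 4 months the median of the 13 genes was 0.03 and none was called (1 at an unadjusted p under 0.05).

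Signal of tissue other than blood cells moved with these genes in part. The summed signal of 11 stroma and matrix genes was 17429 to 26857 in wt and 15083 to 15859 in ko mice at 1 month, with 2 of 11 called lower (Col5a2 and Postn), against 0.24% of all probe sets, and none higher. In ko mice at 4 months the same sum was 13543 to 17370, while Mcpt4 was at 244.5 to 429.6 in those arrays. Of 7 melanocyte genes tested, 0 were called by limma at 1 month (5 at an unadjusted p under 0.05), and the summed signal of 9 was 1150, 7220 and 4103 in the wt mice against 808 to 910 in the ko mice. The wt array with the lowest melanocyte sum, replicate 1, had a Mcpt4 signal of 320.0. The part of stroma and melanocyte signal in the mast cell result was not tested.

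Mcpt4 and Mcpt8 lie next to each other in a cluster of serine protease genes on chromosome 14, which was picked for description after its values were seen. In RefSeq order the cluster runs from Cma1 through Cma2, Mcpt1, Mcpt2, Mcpt9, Mcpt4, Mcpt8, Ctsg and 6 granzymes to Gzmb, 15 protein-coding genes of which 13 had a probe set and 7 were tested. Of the mast cell proteases at one end, Cma1 (-0.96), Mcpt1 (-1.15, SE 0.36) and Mcpt2 (-1.02, SE 0.57) differed at 1 month in the direction of Mcpt4, and none of these 3 was called. Mcpt8 differed by 0.68 (limma adjusted p = 0.301). Ctsg, the cathepsin G of neutrophil precursors, was higher in ko by 1.90 (SE 0.21, limma adjusted p = 0.000226) at 1 month and by 2.53 (SE 0.21, limma adjusted p = 6.80e-06) at 4 months. Gzmb, a protease of cytotoxic lymphocytes at the other end, differed by -0.43 and -0.77 without a call. These genes are related in sequence, and the probe sets were taken as annotated.

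**Figure D2:**
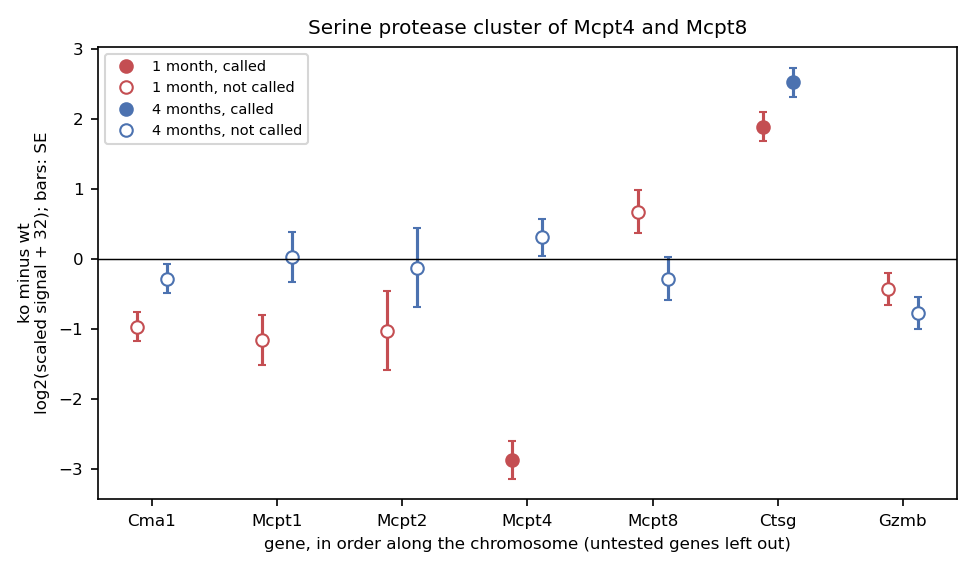
Log2 difference of ko against wt (vertical axis, with SE bars) for the 7 tested genes of the chromosome 14 protease cluster in gene order (horizontal axis), at 1 month and 4 months; filled points were called at an adjusted p under 0.05. Mcpt4 at -2.87 and Ctsg at 1.90 were called at 1 month, and Ctsg alone at 4 months.

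The cluster plot places the called decrease of Mcpt4 and the called increase of Ctsg 2 gene positions apart, with Mcpt8 between them and uncalled.

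Hdc rose in the young ko spleens. The probe set 1451796_s_at read 16.6, 17.5 and 19.0 in wt mice at 1 month. In the ko mice it read 240.5, 178 and 372.5. The groups were far apart, and the wt values lay below a signal of 100. At 4 months the same probe set read 15.65, 38.6 and 88.4 in wt and 28.5, 97.1 and 128 in ko mice, which overlap. This probe set would not have passed the filter without the young ko arrays, where it is high, so its call is a description. It was higher in ko at 1 month by 5.74-fold (log2 difference 2.52, SE 0.42, limma adjusted p = 0.00986). The wt signals lie below the offset of 32, so this size depends on it, and an offset of 1 gave 3.76. The call was lost in 5 of 24 alternatives, with limma adjusted p = 0.0918 within the low array set (difference 2.48), 0.108 with the array set as a block, 0.115 without ko replicate 3, 0.0509 without ko replicate 1 and 0.0531 without wt replicate 2.

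The other Hdc probe set, 1454713_s_at, read 7.95, 22.9 and 53.9 in wt and 143, 177 and 199 in ko mice at 1 month. These did not overlap either, and the difference of 1.83 (SE 0.42) had a limma adjusted p of 0.0684. That value is a description, since only the young ko arrays brought this probe set through the filter. At 4 months it read 27.3, 16.8 and 61.4 in wt and 91.6, 71.85 and 19.0 in ko mice, with overlap. Over both ages the probe set 1451796_s_at was higher in ko by 1.53 (SE 0.30, limma adjusted p = 0.0102). That value is a description, since this probe set would not have passed the filter without the young ko arrays. For 1454713_s_at the value over both ages was 1.13 (SE 0.29); it entered the test only through the 3 young ko arrays, so this is a description, and its call was lost with no filter (limma adjusted p = 0.0505) and in 11 of 20 alternatives in all.

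Neutrophil precursor genes moved with genotype in the same samples. All 12 of 12 tested were called higher in ko at 1 month (median log2 difference 2.16), against 0.203% of all probe sets, and at 4 months (2.81), against 1.78%. Their summed signal was 16347 to 23639 in wt and 71414 to 102914 in ko mice at 1 month, and 2267 to 5006 in wt and 21214 to 29941 in ko mice at 4 months. Mature neutrophil genes were called higher for 5 of 8 at each age. Hdc itself was at 28.5 to 128 in the older ko mice and at 16.6 to 19.0 in the young wt mice. It reached a signal of 100 in 1 of these older ko mice and in no young wt mouse. The precursor sums of these groups overlapped in part, with medians of 27087 in the older ko and 19492 in the young wt mice. The summed signal of mature neutrophil genes did not overlap, at 35058 to 45752 in the older ko and 29013 to 34757 in the young wt mice. The part of neutrophil precursors in the Hdc result was not tested. Of 3 other histamine genes tested (Slc18a2 for storage and Hnmt for breakdown among them), none was called in a genotype comparison by limma, and 0 at an unadjusted p under 0.05 at either age.

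Of the basophil genes, the protease Mcpt8 was the member with a separated but uncalled difference. Its signal was 70.1, 95.1 and 104.5 in wt and 131.5, 136 and 236 in ko mice at 1 month. All ko values lay above all wt values, by a narrow margin. On the log2 scale they differed by 0.68 (SE 0.31, limma adjusted p = 0.301). That value is a description, since Mcpt8 would not have passed the filter without the young ko arrays. At 4 months Mcpt8 read 59.1, 115 and 64.7 in wt and 82.4, 44.1 and 52.45 in ko mice, which overlap (-0.27, limma adjusted p = 0.726). Other basophil genes gave 0 called of 9 tested at 1 month by limma (1 at an unadjusted p under 0.05), with a median of -0.01, and 1 called higher at 4 months (Gata1, described with the transcription factors). The basophil surface gene Cd200r3 read 1.55 to 56.3 over its probe sets and arrays and was not tested.

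For the IgE receptor chains, 2 of 3 probe sets did not pass the filter on low signals. Fcer1a, the chain that binds IgE, read 7.26 to 133 with 1 of 12 arrays at 100 or more, and did not enter the test. Ms4a2, the beta chain that amplifies the signal, read 2.81 to 99.6 in the probe set 1421475_at, which did not enter the test either. In its other probe set, 1443264_at, Ms4a2 read 100.3, 102.7 and 101.8 in wt and 137, 125 and 79.9 in ko mice at 1 month, which overlap. At 4 months it read 78.8, 96.9 and 117 in wt and 211, 137 and 90.7 in ko mice, which overlap too. The differences were 0.10 and 0.42, with no call.

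Genes that carry the IgE receptor signal, most of which other leukocytes also use, gave no call between genotypes at either age. Of 15 tested, such as the kinases Fyn, Syk and Btk, none was called at 1 month by limma (1 at an unadjusted p under 0.05) and none at 4 months (0 at an unadjusted p under 0.05), with medians of -0.07 and -0.08. With age, 12 of the 15 were called higher in wt mice, against 21.4% of all probe sets called in either direction, and 9 in ko mice, against 13.6% called higher. Growth factors and receptors of these lineages, among them Kitl, Il3ra and Il33, gave 0 called of 11 tested by limma at each age (1 at an unadjusted p under 0.05 at 1 month, 0 at 4 months), with medians of 0.21 and 0.12.

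Gata2 was not called between genotypes in either probe set. The stronger probe set 1450333_a_at read 406, 272 and 440.0 in wt and 371.5, 361 and 406 in ko mice at 1 month. At 4 months it read 497, 449 and 417 in wt and 528, 488.5 and 403 in ko mice. The genotypes overlapped at both ages, with log2 differences of 0.05 and 0.05. The weaker probe set 1428816_a_at ran from 19.6 to 132 in wt and 98.1 to 117 in ko mice at 1 month, and from 97.75 to 322 and 119 to 154 at 4 months, again with overlap (0.45 and -0.24). The sign of each of these differences turned in some alternatives, within the low array set for instance at 1 month (-0.20 for the stronger and -0.23 for the weaker probe set).

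A few transcription factors that work with Gata2 or share its lineages were called at 4 months. Of 19 tested, 0 were called at 1 month by limma (7 at an unadjusted p under 0.05), and 3 were called higher in ko at 4 months (5 at an unadjusted p under 0.05; list median 0.13), against 1.78% of all probe sets tested. These were Gata1 (1.17, SE 0.24, limma adjusted p = 0.0147), the erythroid and megakaryocyte factor that also serves mast cells and basophils, Tal1 (1.25), its partner in a DNA-bound complex, and Zfpm1 (1.30), the cofactor FOG-1. In the same arrays 9 of 10 erythroid and 9 of 10 megakaryocyte genes were called higher at 4 months and 0 of 10 of each at 1 month. The part of erythroid and megakaryocyte cells in these differences was not tested. Over both ages 6 of the 19 were called higher, against 2.83% of all probe sets, the other 3 being Cebpb (0.93), Gfi1b (0.95) and Lyl1 (0.47).

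The eosinophil granule genes stood out in single young ko mice. Prg2 read 168, 146 and 350.2 in wt mice at 1 month. In the ko mice it read 946, 112 and 5253. Replicate 3 was far above every other mouse, replicate 1 was next, and replicate 2 lay below all 3 wt mice, so the groups overlapped. At 4 months Prg2 read 147, 133 and 114 in wt and 231, 129 and 186 in ko mice. Epx read 93.7, 52.95 and 132 in wt and 153, 59.1 and 1335 in ko mice at 1 month, and 22.1, 40.2 and 13.7 in wt and 107, 20.7 and 37.4 in ko mice at 4 months. The same replicate 3 was again highest. Prg2 encodes major basic protein and Epx eosinophil peroxidase, both toxic granule contents of eosinophils.

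Neither gene was called at 1 month. The log2 difference of Prg2 was 1.92 (SE 0.79, limma adjusted p = 0.254) and that of Epx 1.24 (SE 0.69, limma adjusted p = 0.39). Epx would not have passed the filter without the young ko arrays, so its difference and its rank by range are descriptions. Among the young ko mice the range of Prg2 on the log2 scale was 5.20, the widest of the 27041 probe sets tested, and that of Epx was 3.91, the third widest. Without ko replicate 3 the differences were 0.65 and 0.11, and without ko replicate 2 that of Prg2 was 3.25 (limma adjusted p = 0.00971). The other eosinophil genes did not share one direction in this array. Prg3, a homologue of Prg2, read 413 in ko replicate 3 against 24.7 to 147 in the other 11, while Ccr3, the eotaxin receptor, read 583 there, its lowest value, against 641 to 1223. Ccl24, an eotaxin, at 233 and Adgre1, which macrophages share, at 1204 were also at their lowest of the 12 arrays there. The low values of Ccr3, Ccl24 and Adgre1 were not particular to that array. Young ko replicates 1 and 2 read 753 and 641 for Ccr3, 250.5 and 290 for Ccl24, and 1372 and 1216 for Adgre1. Young wt mice read 807 to 1145, 335 to 384 and 1524 to 1915 for these genes. Il5ra, the interleukin-5 receptor, at 122 in young ko replicate 3 was within its range of 13.6 to 218. Siglecf and Alox15 read 62.7 and 144 in young ko replicate 3, the highest of the 12 for each, and did not enter the test. Of 5 other eosinophil genes tested, 0 were called by limma at 1 month (2 at an unadjusted p under 0.05) and 0 at 4 months (1 at an unadjusted p under 0.05).

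**Figure D3:**
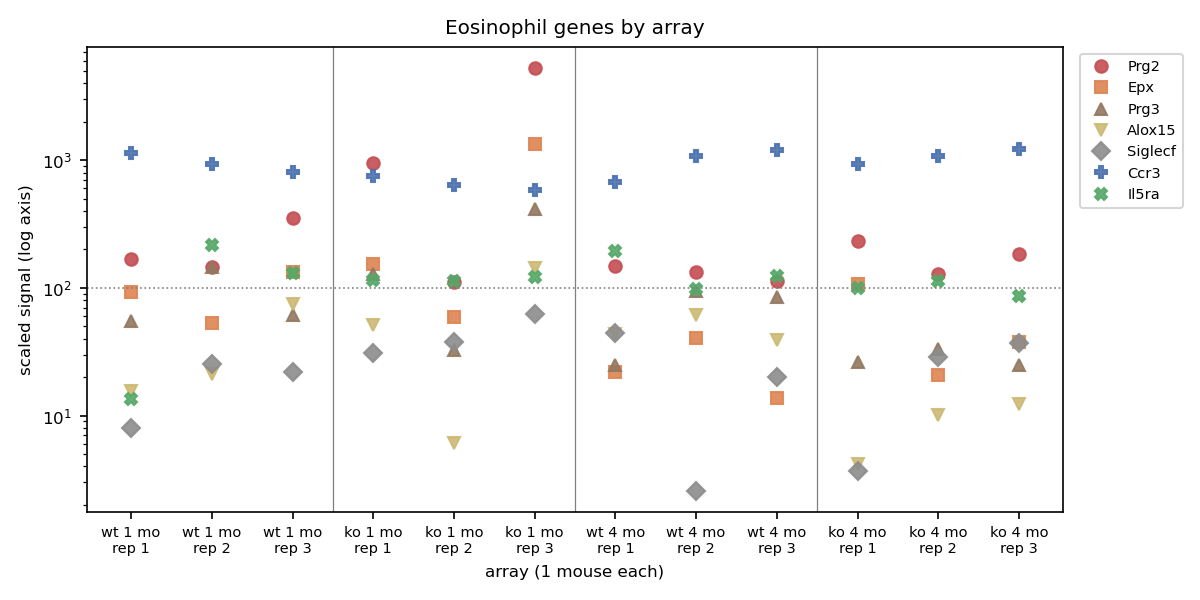
Signal per mouse (vertical axis, log scale) of Prg2, Epx and other eosinophil genes in each array, ordered by group (horizontal axis, 1 mouse each), with a dotted line at a signal of 100. Prg2 at 5253 and Epx at 1335 in ko replicate 3 at 1 month are the highest points for both genes, while Ccr3 at 583 is the lowest for that gene.

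The eosinophil plot shows that the 2 granule genes and Prg3 are highest in the same mouse, ko replicate 3 at 1 month. Siglecf and Alox15, which did not enter the test, are also highest there, while Ccr3 is at its lowest. Prg2 at 946 in ko replicate 1 of that age also lies above every mouse outside the young ko group.

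At 4 months no member was called between genotypes. None of the 10 tested was called by limma, against 2.3% of all probe sets, and 0 had an unadjusted p under 0.05. The groups overlapped for all 10, while those of 22.3% of all probe sets did not. Over both ages 4 member probe sets were called (Mcpt4 and Cpa3 lower, both Hdc probe sets higher), against 5.39% of all probe sets (2.83% higher, 2.56% lower). Neither Hdc probe set would have passed the filter without the young ko arrays. For that reason, and from the choice of members with earlier results known, this count is a description. Mcpt4 fell by 1.27 (SE 0.19, limma adjusted p = 0.00157) and Cpa3 by 0.59 (SE 0.13, limma adjusted p = 0.0208) on the log2 scale. These means over ages join an effect at 1 month with overlapping groups at 4 months.

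The genotype effect differed between ages for Mcpt4. The difference of the effects was 3.18 (SE 0.37, limma adjusted p = 0.00596), the only call among 10 member probe sets against 0.0481% of all probe sets. With members chosen after earlier results were known, that count is a description. The same difference for Cpa3 was 0.98 (SE 0.27, limma adjusted p = 0.28), for Hdc -1.98 (SE 0.59, limma adjusted p = 0.345) and for Mcpt8 -0.96 (SE 0.44, limma adjusted p = 0.569), none of them called. For Cpa3, Hdc and Mcpt8 the genotype effect is therefore not shown to differ between the ages.

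**Figure D4:**
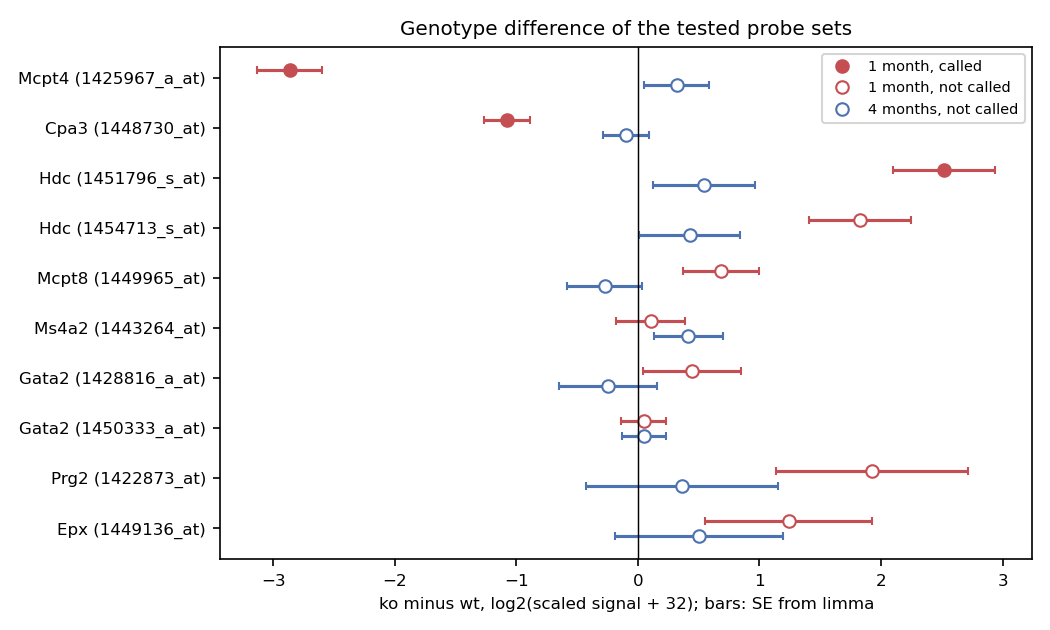
Log2 difference of ko against wt (horizontal axis, with SE bars) for the 10 tested member probe sets (vertical axis) at 1 month and 4 months; filled points were called at an adjusted p under 0.05. At 1 month Mcpt4 at -2.87 and Cpa3 at -1.08 lie to the left of zero and Hdc at 2.52 to the right, and at 4 months the points lie between -0.27 and 0.54 and none is filled.

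The plot of differences sets the spread of the members at 1 month beside their narrow range at 4 months. In wt mice 0 of 10 member probe sets changed with age by limma (1 at an unadjusted p under 0.05), against 21.4% of all. The largest age differences in wt were 0.93 for the weaker Gata2 probe set (limma adjusted p = 0.112) and -1.10 for Epx. In ko mice 5 of 10 were called with age (2 higher, 3 lower), against 22.9% of all (13.6% higher, 9.25% lower). The 3 called lower, both Hdc probe sets and Mcpt8, would not have passed the filter without the young ko arrays. Their calls are therefore descriptions, and so is the count, since the members were chosen with earlier results known. Mcpt4 rose by 2.80 (SE 0.26, limma adjusted p = 1.23e-05) and Cpa3 by 1.12 (SE 0.19, limma adjusted p = 0.000714). Hdc (1451796_s_at) fell by 1.40 (limma adjusted p = 0.0235), a call lost in 7 of 24 alternatives. Its limma adjusted p was 0.127 with the array set as a block and 0.124 without ko replicate 3 at 1 month. It was 0.0620 without ko replicate 1 at 1 month and 0.128 without ko replicate 1 at 4 months. Within the low array set the difference was -1.14. Mcpt8 fell by 1.11 (limma adjusted p = 0.0172), a call lost in 4 of 24. Its limma adjusted p was 0.106 without ko replicate 3 at 1 month, and 0.0605 and 0.0585 without ko replicates 2 and 3 at 4 months. Within the low array set the Mcpt8 difference was -1.35. The value of Hdc 1454713_s_at, -1.23, is a description, and its call was lost with no filter (limma adjusted p = 0.0546) and in 8 of 21 alternatives in all. Prg2 and Epx differed by -2.11 and -1.84 (limma adjusted p = 0.0643 and 0.0653). The Epx value is a description, since Epx too would have failed the filter without the young ko arrays.

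The genes with the most similar profile over the 12 arrays were ranked by the root mean square difference of their log2 values, each less its own mean. Nearest to Mcpt4 were Marco, a scavenger receptor of marginal zone macrophages, at 0.69, then Cpa3 at 0.75, Mybpc1 at 0.76, Il22ra2 at 0.77 and Cd209b at 0.78, against a value of 1.22 for Mcpt4's own variation. Nearest to Cpa3, whose own value was 0.52, were Zfp296 at 0.19, Vipr1 at 0.23 and Ephx1, Hpgd and Grasp at 0.24 each. Nearest to Hdc (1451796_s_at), whose own value was 1.04, were Hp (haptoglobin) at 0.41, Ifitm6 at 0.54, Upk2 at 0.61, Pi16 at 0.61 and Fpr2 at 0.63.
For the other Hdc probe set, with its own value of 0.83, they were Gm6958 at 0.39, Sohlh2 at 0.41, Pxylp1 at 0.42, Trem3 at 0.47 and Hk3 at 0.48.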

How the data were processed

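The deposited values were array signal intensities per probe set on a linear scale, made by the authors with MAS5 per the submitters' processing notes, with no version stated. Total RNA had been isolated with Trizol and labelled with biotin, per the labels. Every array already had a trimmed mean of 500 (2% off each end), and that scaling was reapplied. Signals plus 32 were log2-transformed. Probe sets at 100 or more in 3 or more of 12 arrays were tested, 27041 in all and 10 of the 12 members. A 4-group model was fitted with limma 3.58.1 (R 4.3.3; trended eBayes), 2-sided, with Benjamini-Hochberg adjustment over all tested probe sets and calls at an adjusted p under 0.05. Folds are ratios of signal plus 32. The fit was tested on simulated data. Named were all members, other listed genes called between genotypes (at most 6 a list), and the 5 genes nearest to each of Mcpt4, Cpa3 and Hdc; the other genes named were chosen after their values were seen. Members and lists were chosen with earlier results of these data known. The labels name no litter or batch, so p-values measure the spread between these mice only. The number of arrays limits precision. Gene names are those of the platform annotation, and alternatives are described in the closing section.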

Additional observations from a re-analysis of the deposited data

Results flagged for a closer look

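The genotype effect on Mcpt4 differed between the ages. The log2 difference of ko against wt was -2.87 at 1 month and 0.32 at 4 months, and the difference between them was 3.18 (SE 0.37, limma adjusted p = 0.00596, 3 mice per group). Its adjusted p ranged from 0.00192 to 0.0556 over 24 alternatives and it was called in 23 of them.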

How the results depend on the processing

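The count of member probe sets called at 1 month, 3, was 1 with the array set as a block and 1 within the low array set, and 1 to 4 when each array was left out in turn (1 without ko replicate 1 or ko replicate 3 of that age). Over both ages the count of 4 was 2 with the filter at 200, 0 within the low set and 2 to 4 with an array left out (2 without ko replicate 3 at 1 month or ko replicate 1 at 4 months). For the difference between ages the count of 1 was 0 within the low set. With age in wt it was 0 to 1 with an array left out (1 without wt replicate 3 at 1 month: Gata2 1428816_a_at, 1.27, limma adjusted p = 0.0405). With age in ko the count of 5 was 3 with an offset of 1 and of 8, 2 with the filter at 200, 3 with the array set as a block, 2 within the low set and 2 to 6 with an array left out; it was 3 without ko replicate 1 at 1 month or ko replicate 2 or 3 at 4 months, and 2 without ko replicate 3 at 1 month. The array sets hold few arrays per group, so fewer samples enter there; the cause was not tested further.

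Signs that turned belonged to uncalled differences. At 1 month, Gata2 1450333_a_at was -0.015 with the array set as a block and -0.20 within the low set, and -0.15 to 0.17 with an array left out. Gata2 1428816_a_at was -0.23 within the low set and -0.050 to 0.78 with an array left out, and Ms4a2 1443264_at -0.013 to 0.28. At 4 months, Cpa3 was 0.30 within the low set, -0.30 within the high set and 0.018 without ko replicate 1 of that age. Gata2 1428816_a_at was 0.52 within the low set and -0.54 to 0.19 with an array left out. Gata2 1450333_a_at was -0.032 within the high set and -0.028 to 0.15 with an array left out. With age in wt, Gata2 1428816_a_at was -0.34 within the low set. Median centring moved the median of all probe sets at 1 month from -0.04 to 0.12, and Mcpt4 stayed lower and called. Same-numbered arrays did not deviate together (correlations -0.201 to 0.211, over 0.1 in 4 of 18 pairs). With the replicate number as a block, the 6 member counts were 3, 0, 4, 1, 0 and 5, as in the fit without it; the Il1rn call at 1 month (adjusted p = 0.0557) and the Hdc 1454713_s_at call with age in ko (0.0569) were lost and Prg2 with age in ko (0.0327) was gained.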

Other observations

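Among the 27041 probe sets tested, Epx and Prg2 had the largest excess of ko replicate 3 at 1 month over the higher of the other 2 ko mice of that age, at 2.88 and 2.43 on the log2 scale, followed by Pym1 at 2.15. This ranking was made after the values were seen, and Epx would have failed the filter without the young ko arrays. The genes whose profile over the 12 arrays lay nearest to Prg2 (own root mean square variation 1.46) were Epx at 0.51, Prg3 at 0.99 and Cpox, an enzyme of haem synthesis, at 1.00.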
